A study of Mus musculus with 6 samples.

Results

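The chemokines, interleukins, colony-stimulating factors and their receptors were described in cultured mouse keratinocytes and mouse embryonic fibroblasts (MEFs). Members were chosen by a rule on gene symbols: a probe set belonged if its single symbol began with Ccl, Cxcl, Ccr, Cxcr, Ackr, Il or Csf followed by a digit, or was Cx3cl1, Lif, Lifr, Osmr or Tslp. The rule found 45 probe sets of 38 genes, out of 11288 probe sets of 10261 genes that carried exactly 1 symbol. By role, the 38 genes were 17 ligands, 19 receptor chains and 2 secreted inhibitors. Of the chemokine receptors only Ackr3 was among them, and other family members, such as Cxcr4 or Tslp, were not analysed here.

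Chemokines are small secreted or membrane-held proteins that direct the movement of leukocytes through G protein-coupled receptors, and they are sorted into CC, CXC and CX3C classes by the spacing of their first cysteines. Interleukins and colony-stimulating factors act through receptors built of several chains, of which shared chains such as gp130 carry the signal to JAK kinases and STAT factors, while receptors of the IL-1 family carry it to NF-kB. In skin, keratinocytes are known as a source of alarm cytokines of the IL-1, IL-20 and IL-36 families, and dermal fibroblasts as a source of chemokines and growth factors for monocytes and macrophages.

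The first 3 arrays carry the label keratinocytes, for untreated primary cells from the back skin of pups at postnatal day 0, and the other 3 the label MEFs, for untreated primary cells of E13.5 embryos. Total RNA was hybridised to Affymetrix MoGene-1_0-st arrays, which carry a set of short probes for each transcript. The values are read as log2 signals after RMA, which corrects background and brings arrays to a common distribution. That they are RMA output follows only from their range, and the medians of the deposited probe sets were 6.16 to 6.31 across the arrays. The methods name C57BL/6J embryos as the source of MEFs, whereas the isolation protocol names DR-4 embryos and pools several of them with heads and inner organs removed, and no strain of the keratinocytes was found in the sources used here. The cultures differed in medium, with an epidermal medium for keratinocytes and DMEM with serum for MEFs, so that medium, age and cell type cannot be told apart.

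The cell type labels did not match the markers of the arrays. Cdh1, which encodes the epithelial adhesion protein E-cadherin, had log2 signals of 3.33, 2.16 and 3.26 on the keratinocyte-labelled arrays, against 8.62, 8.59 and 8.73 on the MEF-labelled ones. Vim, which encodes the mesenchymal filament protein vimentin, had 11.93, 11.97 and 12.03 on the keratinocyte-labelled arrays and 3.81, 3.92 and 3.78 on the MEF-labelled ones. For both genes the groups did not overlap, with p = 0.1 in an exact two-sided permutation test, the smallest p that 3 arrays against 3 can give (limma adjusted p = 4.03e-07 for Cdh1 and 7.89e-10 for Vim). Of the marker lists, all 10 keratinocyte markers were lower and all 10 fibroblast markers higher on the keratinocyte-labelled arrays. Each direction given here is therefore that of the arrays as labelled, and the labels run against the markers throughout.

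Differences are log2 signals on the keratinocyte-labelled arrays minus the MEF-labelled arrays, with 95% intervals and Benjamini-Hochberg adjusted p-values from a limma fit over all 11288 probe sets, called at an adjusted p under 0.05. A value counts as above background where it exceeds the 95th percentile that 10 probe sets of olfactory receptors reach on its array, which was 5.49 to 5.92 on the keratinocyte-labelled arrays and 6.05 to 6.58 on the MEF-labelled ones. Where a gene was above this level on no array of the dimmer group, its fold is a lower bound, computed against whichever of the background level and the signal itself was higher, and no fold is given where that bound was under 1 or both groups lay below background. The level rests on few probe sets and is rough, so a gene below it need not be silent. The labels call the arrays biological replicates without naming separate animals or cultures, so the p-values measure only the spread between these arrays, and their number limits the precision. In such bulk RNA, fewer cells of a type and less RNA per cell cannot be told apart.

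Of the 45 member probe sets, 22 were higher and 12 lower on the keratinocyte-labelled arrays, and 11 did not pass. The called share was 75.6%, beside 74.0% of all probe sets tested, so that by probe set being called is no feature of the members. The 11 that did not pass include all 5 probe sets of Ccl19, which are not independent. In the upward direction the share was 48.9% of the members beside 32.4% of all probe sets, and in the downward direction 26.7% beside 41.6%. The median difference of the members was 0.30 on the log2 scale, against -0.12 over all probe sets, and the median size of the difference was 1.01 against 0.56. Among the members, 15 were higher and 8 lower by at least 1 on the log2 scale, which is 33.3% and 17.8%, beside 14.0% and 14.3% of all probe sets. Groups did not overlap for 34 members, or 75.6%, beside 77.9% of all probe sets. With each gene represented by its brightest probe set, 21 genes were higher, 11 were lower and 6 did not pass, so that 84.2% were called, beside 74.5% of all genes, with 55.3% higher and 28.9% lower beside 32.9% and 41.7%. The median difference was then 0.51, against -0.12 over all genes, and the median size 1.22 against 0.57. Whether these few genes differ from all genes was not tested. Above background on all 3 arrays of a group were 21 members, or 46.7%, beside 60.8% of all probe sets, and 20 members were above it on no array. Of these 20, 11 were called, or 55.0%, beside 65.6% of all probe sets above background on no array. Among the 21 brighter members, 13 were higher, 7 were lower and 1, Il17ra, did not pass. That is 95.2% called, 61.9% higher and 33.3% lower, beside 77.7%, 35.2% and 42.5% of all probe sets that met the same rule. The rule lets a member in through the group where it is bright. Only 6 of the 21 were above background on all 6 arrays, beside 4377 of 6865 probe sets, so these shares are no result about the members.

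**Figure D1:**
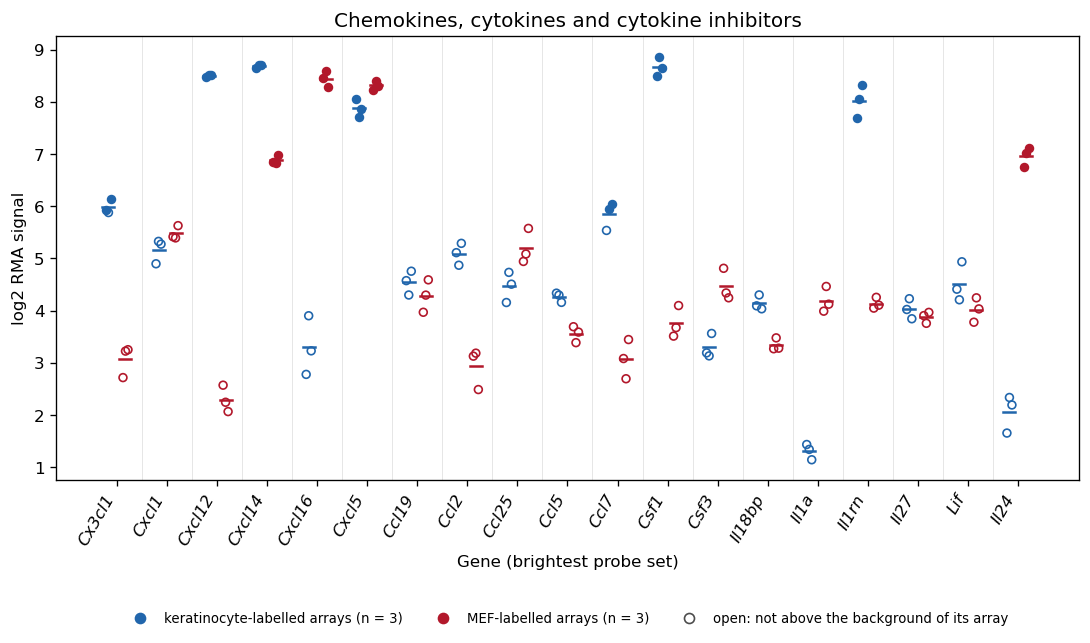
Log2 RMA signal (vertical axis) of the 17 ligands and 2 inhibitors, each by its brightest probe set, on the 3 keratinocyte-labelled (blue, left) and the 3 MEF-labelled arrays (red, right), with points for arrays, lines for group means and open points for values not above the background of their array. Cxcl12, Csf1 and Il1rn are bright only on the keratinocyte-labelled arrays, Cxcl16 and Il24 only on the MEF-labelled ones, and Cxcl14 and Cxcl5 are bright on all 6 arrays.

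The CXC and CX3C chemokines split between the groups, with 3 of 6 genes higher, 2 lower and 1 that did not pass. Over all genes 32.9% were higher and 41.7% lower, so counts in this and the other small classes only describe their genes. Cxcl12, the stromal chemokine that holds blood stem cells in the bone marrow through Cxcr4, had log2 signals of 8.47, 8.51 and 8.52 on the keratinocyte-labelled arrays, against 2.57, 2.25 and 2.07 on the MEF-labelled ones. Its difference of 6.20 (95% interval 5.90 to 6.51, adjusted p = 4.58e-09) was measured against signals far below background, and the fold was at least 4.33. The atypical receptor Ackr3, which scavenges CXCL12, was above background on no array and did not pass, with 4.42, 4.05 and 4.19 on the keratinocyte-labelled arrays and 4.40, 4.59 and 4.53 on the MEF-labelled ones (difference -0.29, 95% interval -0.56 to -0.016, adjusted p = 0.0538). Without keratinocyte-labelled replicate 1, Ackr3 was called lower there (adjusted p = 0.0131). Cxcl14, a chemokine known from the epidermis and other epithelia, was bright in both groups and stood at 8.65, 8.71 and 8.70 on the keratinocyte-labelled arrays, above the 6.85, 6.84 and 6.99 on the MEF-labelled ones. It was 3.47-fold higher on the keratinocyte-labelled arrays, with a difference of 1.79 (95% interval 1.59 to 2.00, adjusted p = 4.10e-07). Cx3cl1, or fractalkine, a membrane-anchored chemokine of endothelial and epithelial cells, had 5.92, 5.88 and 6.15 on the keratinocyte-labelled arrays, 2 of which were above background, against 2.72, 3.23 and 3.25 on the MEF-labelled ones (difference 2.92, adjusted p = 7.29e-07).

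Cxcl16, a membrane-bound chemokine that attracts T cells through Cxcr6, ran the other way. It had 2.78, 3.90 and 3.23 on the keratinocyte-labelled arrays, none above background, against 8.46, 8.58 and 8.28 on the MEF-labelled ones. The difference was -5.14 (95% interval -5.72 to -4.56, adjusted p = 4.05e-07), and Cxcl16 was at least 6.69-fold lower on the keratinocyte-labelled arrays. The neutrophil attractant Cxcl5 was bright on all 6 arrays and differed little, with 8.06, 7.71 and 7.86 on the keratinocyte-labelled arrays and 8.23, 8.40 and 8.31 on the MEF-labelled ones. Its groups did not overlap, and it was 1.35-fold lower on the keratinocyte-labelled arrays (difference -0.44, 95% interval -0.70 to -0.18, adjusted p = 0.00792). Cxcl1, which attracts neutrophils through the same receptor Cxcr2, was below background throughout, at 4.90, 5.33 and 5.27 on the keratinocyte-labelled arrays and 5.42, 5.39 and 5.63 on the MEF-labelled ones. Its difference of -0.31 (95% interval -0.62 to -0.0022, adjusted p = 0.0639) did not pass, although it did without keratinocyte-labelled replicate 2 (adjusted p = 0.0424). A further CXC chemokine whose symbol the rule does not catch, the platelet chemokine gene Ppbp, was at least 5.68-fold lower on the keratinocyte-labelled arrays, with 5.02, 4.93 and 4.93 there against 8.07, 8.26 and 8.28 on the MEF-labelled ones (adjusted p = 2.23e-08).

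None of the 5 CC chemokine genes was above background on all arrays of a group. Ccl7, a monocyte attractant, came nearest, with 5.54, 5.94 and 6.05 on the keratinocyte-labelled arrays, 2 of them above background, and 3.08, 2.70 and 3.45 on the MEF-labelled ones (difference 2.77, 95% interval 2.30 to 3.24, adjusted p = 5.11e-06). Ccl2, the ligand of Ccr2 that draws monocytes out of the blood, moved the same way below background, with 5.11, 4.87 and 5.29 on the keratinocyte-labelled arrays against 3.13, 3.19 and 2.49 on the MEF-labelled ones (difference 2.16, adjusted p = 1.91e-05). Ccl5, an attractant of T cells and monocytes, was higher by 0.71 on the log2 scale on the keratinocyte-labelled arrays (adjusted p = 4.59e-04) and was likewise below background on all 6. Ccl25, a chemokine of thymus and small intestine, was lower with both of its probe sets, with differences of -1.80 and -0.74 (adjusted p = 2.07e-06 and 0.00921), again below background. Ccl19, the ligand of Ccr7, had 5 probe sets, 2 of them with identical values, so that they are not independent measurements. They ranged from 3.79 to 4.76 on the keratinocyte-labelled arrays and from 3.42 to 4.59 on the MEF-labelled ones, and none passed (adjusted p = 0.163 to 0.240).

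Csf1, the growth factor on which macrophages depend, had log2 signals of 8.50, 8.87 and 8.64 on the keratinocyte-labelled arrays, against 3.51, 3.67 and 4.10 on the MEF-labelled ones, where it was below background. Its difference was 4.91 (95% interval 4.53 to 5.29, adjusted p = 4.30e-08), which is at least 4.87-fold higher for the keratinocyte-labelled arrays. Csf3, the granulocyte factor, was below background on every array and lower on the keratinocyte-labelled ones, with 3.19, 3.13 and 3.56 against 4.81, 4.34 and 4.25 on the MEF-labelled ones (difference -1.17, adjusted p = 3.89e-04). Csf2ra, the ligand-binding chain of the GM-CSF receptor, was above background only on the keratinocyte-labelled arrays, at 6.00, 6.23 and 6.00, against 5.21, 5.33 and 5.27 on the MEF-labelled ones. The groups did not overlap (difference 0.80, 95% interval 0.57 to 1.03, adjusted p = 1.27e-04), but the level on the keratinocyte-labelled arrays lay under the background of the MEF-labelled ones, so no fold is given.

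In the IL-1 system 2 of 3 receptor chains and both inhibitors were higher on the keratinocyte-labelled arrays, the third chain did not pass, and the agonist was lower. Beside these few genes, 32.9% of all genes were higher and 41.7% lower. Il1r1, the receptor of IL-1, stood at 7.99, 8.00 and 7.93 on the keratinocyte-labelled arrays and at 5.68, 5.88 and 5.78 on the MEF-labelled ones, at least 3.01-fold higher on the keratinocyte-labelled arrays (difference 2.19, 95% interval 1.99 to 2.40, adjusted p = 1.43e-07). Il1rl2, the receptor of the IL-36 cytokines, had 6.56, 6.67 and 6.75 on the keratinocyte-labelled arrays, against 1.22, 1.47 and 2.28 on the MEF-labelled ones. Its difference of 5.00 (95% interval 4.44 to 5.56, adjusted p = 3.93e-07) was measured mostly below background, and the bound on its fold was only 1.21. Il1rap, the accessory chain that both receptors share, did not pass, with 5.28, 5.35 and 5.54 on the keratinocyte-labelled arrays and 5.53, 5.63 and 5.81 on the MEF-labelled ones (difference -0.27, 95% interval -0.53 to -0.0060, adjusted p = 0.0607). It was called lower on the keratinocyte-labelled arrays without replicate 3 of that label (adjusted p = 0.0335) or without MEF-labelled replicate 1 (adjusted p = 0.0462).

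Il1rn, which encodes the antagonist that blocks Il1r1, had 7.69, 8.05 and 8.33 on the keratinocyte-labelled arrays, against 4.05, 4.26 and 4.11 on the MEF-labelled ones, at least 3.11-fold higher on the keratinocyte-labelled arrays (difference 3.89, 95% interval 3.52 to 4.25, adjusted p = 1.36e-07). Il18bp, a soluble decoy for IL-18, was higher by 0.80 (adjusted p = 2.30e-04) but below background on all 6 arrays. Il1a, an alarm cytokine stored in keratinocytes, was also below background throughout, with 1.44, 1.34 and 1.14 on the keratinocyte-labelled arrays and 3.99, 4.46 and 4.12 on the MEF-labelled ones. Its groups did not overlap (difference -2.88, 95% interval -3.21 to -2.56, adjusted p = 4.05e-07), and no fold is given.

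**Figure D2:**
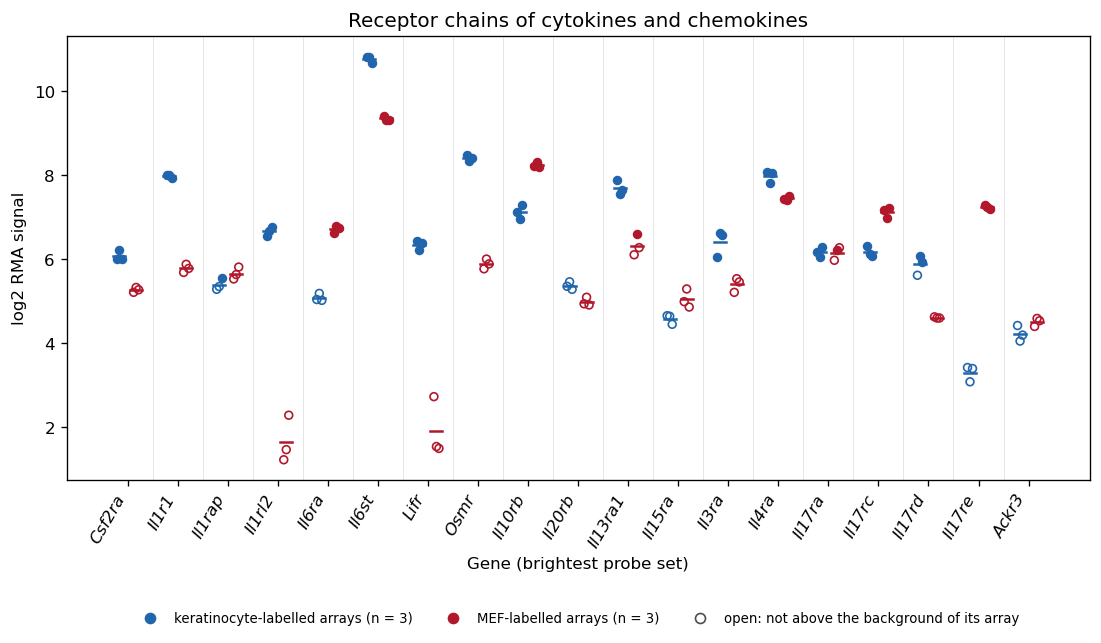
Log2 RMA signal (vertical axis) of the 19 receptor chains, each by its brightest probe set, on the 3 keratinocyte-labelled (blue, left) and the 3 MEF-labelled arrays (red, right), with points for arrays, lines for group means and open points for values not above the background of their array. Il1r1, Il1rl2, Lifr and Osmr are above background only on the keratinocyte-labelled arrays, Il6ra and Il17re only on the MEF-labelled ones, and Il6st, Il4ra, Il10rb and Il17rc on all 6. The background level was higher on the MEF-labelled arrays, where Il1r1 and Osmr exceeded the 75th percentile of the olfactory receptors on all 3.

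The gp130 receptors differed chain by chain. Il6st, which encodes the shared chain gp130, was bright on all arrays, with 10.82, 10.81 and 10.66 on the keratinocyte-labelled ones and 9.41, 9.32 and 9.32 on the MEF-labelled ones, and was 2.67-fold higher on the keratinocyte-labelled arrays (difference 1.42, 95% interval 1.21 to 1.63, adjusted p = 2.14e-06). Osmr, which joins gp130 to receive oncostatin M, stood at 8.48, 8.33 and 8.41 on the keratinocyte-labelled arrays and 5.77, 6.00 and 5.89 on the MEF-labelled ones, at least 4.05-fold higher on the keratinocyte-labelled arrays (difference 2.52, 95% interval 2.29 to 2.75, adjusted p = 1.00e-07). Lifr, which joins gp130 to receive LIF, had 6.43, 6.22 and 6.39 on the keratinocyte-labelled arrays, all above background, against 2.73, 1.54 and 1.49 on the MEF-labelled ones. MEF-labelled replicate 1 lay above the other 2 such arrays for Lifr, and the groups did not overlap (difference 4.43, 95% interval 3.74 to 5.11, adjusted p = 2.90e-06). The bound on the fold of Lifr was under 1, so no fold is given. Il6ra, the chain that binds IL-6, ran against these 3 chains, with 5.04, 5.18 and 5.02 on the keratinocyte-labelled arrays and 6.62, 6.79 and 6.75 on the MEF-labelled ones. It was at least 2.02-fold lower on the keratinocyte-labelled arrays (difference -1.64, 95% interval -1.85 to -1.42, adjusted p = 1.18e-06).

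Of the ligands of this family, Lif was below background and only just passed, with 4.41, 4.21 and 4.94 on the keratinocyte-labelled arrays and 3.78, 4.25 and 4.03 on the MEF-labelled ones (difference 0.50, 95% interval 0.046 to 0.95, adjusted p = 0.047). The groups overlapped, and the call was lost without keratinocyte-labelled replicate 1 or 3 (adjusted p = 0.0674 and 0.132), without MEF-labelled replicate 1 or 3 (0.142 and 0.0933), with all 15648 probe sets in the fit (0.0789), with quantile normalization (0.138) and with the methods' t-test (0.151). Il27, which encodes a subunit of IL-27, did not pass, at 4.02, 4.23 and 3.84 on the keratinocyte-labelled arrays and 3.91, 3.76 and 3.97 on the MEF-labelled ones (difference 0.16, 95% interval -0.12 to 0.43, adjusted p = 0.266).

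Il24, a cytokine of the IL-20 family that acts on epithelia, was lower on the keratinocyte-labelled arrays. It stood at 1.66, 2.34 and 2.19 on these, far below background, against 6.74, 7.02 and 7.12 on the MEF-labelled arrays. The difference was -4.90 (95% interval -5.33 to -4.48, adjusted p = 8.41e-08), at least 2.40-fold. Il10rb, a chain shared by the receptors of IL-10, IL-22 and interferon lambda, was bright in both groups, with 7.13, 6.95 and 7.28 on the keratinocyte-labelled arrays and 8.23, 8.31 and 8.19 on the MEF-labelled ones, 2.18-fold lower on the keratinocyte-labelled arrays (difference -1.12, 95% interval -1.37 to -0.88, adjusted p = 2.62e-05). Il20rb, a receptor chain for IL-24, was below background on all arrays, and its probe sets gave different calls. The brighter was higher on the keratinocyte-labelled arrays by 0.39 (adjusted p = 0.00685), while the other had a difference of 0.012 (95% interval -0.23 to 0.26, adjusted p = 0.92).

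The IL-17 receptor chains went in both directions. Il17ra, the chain shared by the family, had 6.18, 6.05 and 6.29 on the keratinocyte-labelled arrays and 5.97, 6.21 and 6.27 on the MEF-labelled ones, overlapping groups with a difference of 0.023 (95% interval -0.24 to 0.28, adjusted p = 0.86). Il17re, which pairs with Il17ra to receive the epithelial cytokine IL-17C, stood at 3.42, 3.08 and 3.40 on the keratinocyte-labelled arrays and at 7.29, 7.23 and 7.19 on the MEF-labelled ones. It was at least 2.90-fold lower on the keratinocyte-labelled arrays, with a difference of -3.94 (95% interval -4.20 to -3.68, adjusted p = 1.92e-08). Il17rc, which pairs with Il17ra to receive IL-17A, was bright on all 6 arrays, with 6.30, 6.12 and 6.08 on the keratinocyte-labelled ones and 7.18, 6.98 and 7.22 on the MEF-labelled ones, 1.95-fold lower on the keratinocyte-labelled arrays (difference -0.96, 95% interval -1.21 to -0.72, adjusted p = 6.75e-05). Il17rd, also known as Sef, an inhibitor of FGF signalling, was higher with both of its probe sets. The brighter had 5.62, 6.08 and 5.92 on the keratinocyte-labelled arrays, 2 of them above background, against 4.63, 4.60 and 4.60 on the MEF-labelled ones (difference 1.27, adjusted p = 3.31e-05), and the other had a difference of 0.93 (adjusted p = 0.011) that did not pass by the methods' t-test (adjusted p = 0.0765).

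Among the receptor chains of IL-3, IL-4, IL-13 and IL-15, 3 of 4 were higher on the keratinocyte-labelled arrays, beside 32.9% of all genes. Il13ra1, which forms a receptor for IL-13 with Il4ra, had 7.89, 7.55 and 7.64 on the keratinocyte-labelled arrays and 6.10, 6.59 and 6.27 on the MEF-labelled ones, 2.58-fold higher on the keratinocyte-labelled arrays (difference 1.37, 95% interval 1.03 to 1.71, adjusted p = 5.27e-05). Its partner Il4ra was bright on all 6 arrays and moved less, with 8.07, 7.82 and 8.05 on the keratinocyte-labelled ones and 7.44, 7.41 and 7.50 on the MEF-labelled ones (difference 0.53, 95% interval 0.30 to 0.76, adjusted p = 0.00147), 1.44-fold higher. Il3ra, the binding chain for IL-3, was above background only on the keratinocyte-labelled arrays, at 6.05, 6.62 and 6.58, against 5.21, 5.53 and 5.46 on the MEF-labelled ones (difference 1.01, 95% interval 0.63 to 1.40, adjusted p = 6.94e-04), and the bound on its fold was 1.02. Il15ra, which presents IL-15 to lymphocytes, was below background and lower on the keratinocyte-labelled arrays, with 4.65, 4.64 and 4.45 against 4.99, 5.29 and 4.86 on the MEF-labelled ones (difference -0.47, adjusted p = 0.0111).

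**Figure D3:**
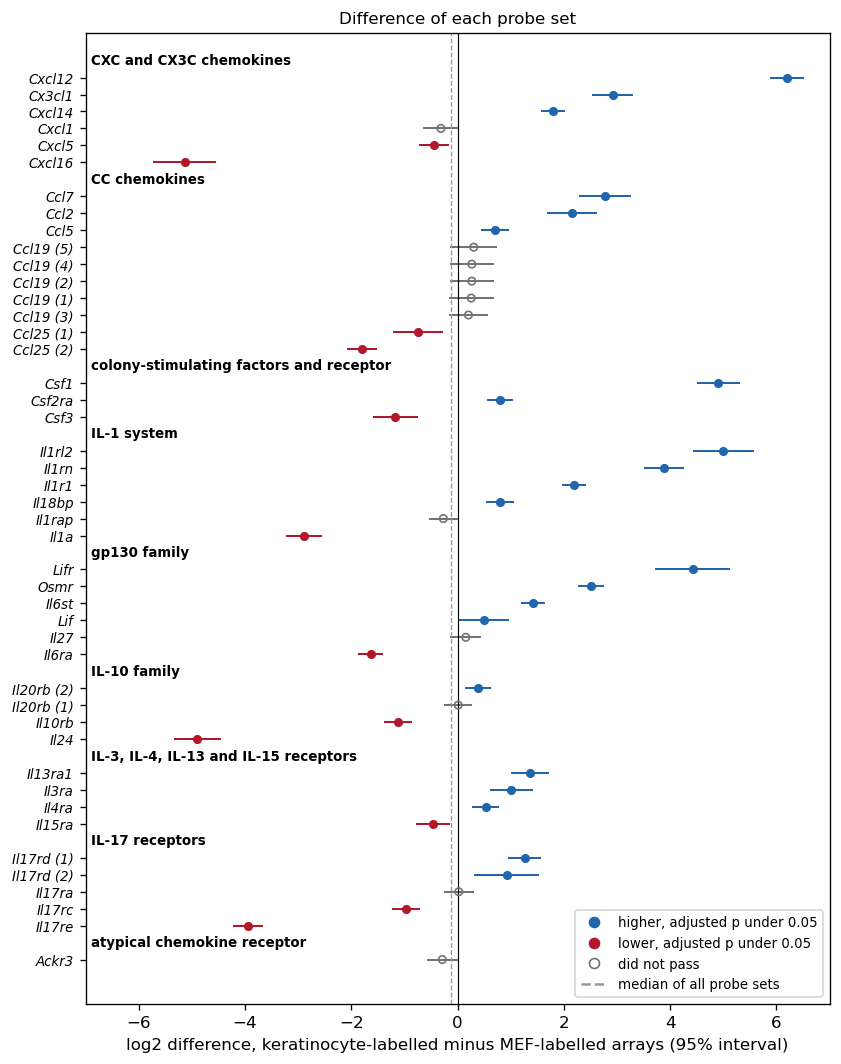
Log2 difference (horizontal axis, keratinocyte-labelled minus MEF-labelled arrays) of each of the 45 probe sets by class, with bars for 95% intervals from limma, filled points for called differences (blue higher, red lower), open grey points for those that did not pass, numbers for the probe sets of a gene and a dashed line at the median of all probe sets. Cxcl12 at 6.20 and Cxcl16 at -5.14 mark the ends of the plotted points, each with 1 group below background, and ligands and receptors lie on both sides.

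Several members are neighbours in the RefSeq gene order of GRCm38.p6, which the rule did not use. Lifr and Osmr on chromosome 15, Il1r1 and Il1rl2 on chromosome 1 and Ccl2 and Ccl7 on chromosome 11 are adjacent coding genes, and both genes of each pair were higher on the keratinocyte-labelled arrays. Il17re and Il17rc are adjacent on chromosome 6, and both were lower there. The Cxcl5 and Cxcl1 genes on chromosome 5 have 4 coding genes between them, and their differences were -0.44 and -0.31, and only that of Cxcl5 passed. How often adjacent genes share a direction over all genes was not tested, so these pairs only describe their genes. Over all genes 32.9% were higher and 41.7% lower. Neighbours can share probes or transcripts, and these values do not separate that from their own levels.

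Promoter sequences were at hand for 28 of the 38 genes, from RefSeq with the build GRCm38.p6, and not for Ccl2, Ccl5, Ccl7, Csf3, Cxcl16, Cxcl5, Il10rb, Il17ra, Il24 and Il27. Shown are the 250 bases before the start of Cxcl12, Il1rl2 and Csf1, which were higher on the keratinocyte-labelled arrays and below background on the MEF-labelled ones, of Cxcl14, which was bright in both groups, and of Il17re, which was lower on the keratinocyte-labelled arrays. These were picked after their values were seen. Each reads 5′ to 3′ on the strand of its gene, in lower case, with matches to any of 5 motifs in capitals: GGGCGG (a GC box), TATAAA, GGGNNTTTC (an NF-kB site, without its last base), TGANTCA (an AP-1 site) and TTCNNNGAA (a STAT site), searched on both strands. None of the matches shown overlaps one of another motif.
Cxcl12 (GRCm38.p6, chr6:117168285-117168534, + strand): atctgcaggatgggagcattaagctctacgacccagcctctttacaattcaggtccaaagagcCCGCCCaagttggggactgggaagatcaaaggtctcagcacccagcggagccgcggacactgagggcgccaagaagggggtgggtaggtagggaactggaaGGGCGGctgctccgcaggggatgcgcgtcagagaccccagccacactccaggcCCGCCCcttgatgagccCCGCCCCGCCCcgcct
Il1rl2 (GRCm38.p6, chr1:40324339-40324588, + strand): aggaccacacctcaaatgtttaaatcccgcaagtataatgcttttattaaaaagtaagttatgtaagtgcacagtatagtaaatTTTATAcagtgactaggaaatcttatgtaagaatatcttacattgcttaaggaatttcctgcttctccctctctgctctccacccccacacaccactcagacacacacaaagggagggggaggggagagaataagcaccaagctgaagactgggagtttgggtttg
Csf1 (GRCm38.p6, chr3:107760470-107760719, - strand): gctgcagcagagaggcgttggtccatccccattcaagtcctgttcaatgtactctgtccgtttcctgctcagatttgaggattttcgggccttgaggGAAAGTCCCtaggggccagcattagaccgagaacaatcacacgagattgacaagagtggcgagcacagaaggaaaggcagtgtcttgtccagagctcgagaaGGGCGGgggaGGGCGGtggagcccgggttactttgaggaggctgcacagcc
Cxcl14 (GRCm38.p6, chr13:56296552-56296801, - strand): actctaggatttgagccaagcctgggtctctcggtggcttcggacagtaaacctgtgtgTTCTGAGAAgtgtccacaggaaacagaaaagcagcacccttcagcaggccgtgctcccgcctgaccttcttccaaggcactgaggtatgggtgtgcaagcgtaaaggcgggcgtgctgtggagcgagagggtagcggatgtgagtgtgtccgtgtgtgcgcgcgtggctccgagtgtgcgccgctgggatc
Il17re (GRCm38.p6, chr6:113458521-113458770, + strand): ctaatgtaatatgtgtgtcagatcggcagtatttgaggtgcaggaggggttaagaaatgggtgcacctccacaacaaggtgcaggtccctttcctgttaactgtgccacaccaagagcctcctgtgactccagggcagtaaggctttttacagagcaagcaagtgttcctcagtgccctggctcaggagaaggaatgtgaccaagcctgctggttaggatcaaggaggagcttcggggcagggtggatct

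Cxcl12 held 5 GC boxes, beginning 187, 86, 33, 16 and 11 bases before the start, and those at 16 and 11 share a base in 1 run of capitals. Csf1 held an NF-kB match at 153 and GC boxes at 51 and 41 bases. Il1rl2 held TATAAA on the opposite strand at 166 bases, Cxcl14 a STAT match at 191 bases, and Il17re none of the 5 motifs. A GC box was in 15 of the 28 member genes, beside 35.4% of all 27025 genes with a promoter sequence. TATAAA was in 5 members, beside 14.3% of all genes, and an NF-kB match in 4 (Csf1, Cxcl1, Il17rc and Il1rn), beside 4.35%. An AP-1 match was in 4 members, beside 7.82% of all genes, and a STAT match in 1, beside 8.13%. The 4 genes with an NF-kB match did not share a direction: Csf1 and Il1rn were higher, Il17rc was lower and Cxcl1 did not pass. Such a match describes letters in this window and is no measured binding.

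Signalling genes were taken from lists drawn up by function, which also held some receptor chains and ligands. The lists were chosen with earlier results of these data known, so their shares only describe their genes. Of 32 genes from the IL-1 receptor to NF-kB, 19 were measured, and 6 were higher, 11 lower and 2 not called, with a median difference of -0.47 beside -0.12 over all genes. The called share was 89.5%, beside 74.5% of all genes. The higher share was 31.6% and the lower 57.9%, beside 32.9% and 41.7% of all genes. Nfkbia, which encodes the NF-kB inhibitor that NF-kB itself induces, had 5.86, 5.78 and 5.66 on the keratinocyte-labelled arrays and 7.85, 8.03 and 8.10 on the MEF-labelled ones (difference -2.22, adjusted p = 2.99e-07). Irak3, an inhibitory kinase-like protein of the pathway, went the other way below background (difference 2.11, adjusted p = 5.65e-07), as did Nfkbie (1.15), Irak2 (0.45) and Relb (0.44), with Relb above background on 1 array. The adaptor gene Tab2 at 0.99 and Nfkb2, a subunit gene of the noncanonical arm, at 0.51 were above background on all 6 arrays. The adaptor gene Tab3 was at least 2.25-fold lower on the keratinocyte-labelled arrays (difference -1.68, adjusted p = 1.05e-04). The adaptor Myd88, through which Il1r1 signals, did not pass, with a difference of 0.15 (95% interval -0.049 to 0.35, adjusted p = 0.146), but was called higher with median centring (adjusted p = 0.0333), quantile normalization (0.0258) and the methods' t-test (0.0487).

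Of 30 genes of JAK-STAT signalling, 24 were measured, and 13 were higher, 5 lower and 6 not called, with a median difference of 0.31. The 13 include the receptor chains Il6st, Cntfr and Crlf2 and the ligand Clcf1, with Cntfr above background on no array and Clcf1 on 1. The 18 of 24 called are a share close to the 74.5% of all genes. By direction 54.2% were higher and 20.8% lower, beside 32.9% and 41.7% of all genes. Stat3, the main STAT of gp130, had 9.27, 9.25 and 9.20 on the keratinocyte-labelled arrays and 8.56, 8.54 and 8.56 on the MEF-labelled ones (difference 0.69, adjusted p = 1.00e-04). The kinase gene Jak1 was 1.65-fold higher (difference 0.73, adjusted p = 1.65e-04), and Socs3, a feedback inhibitor of gp130, at least 1.27-fold higher (difference 0.93, adjusted p = 5.97e-05). Lower on the keratinocyte-labelled arrays were the phosphatase gene Ptpn6 (-2.16, adjusted p = 8.95e-07), the kinase gene Tyk2 (-1.37, adjusted p = 4.34e-05), the inhibitors Cish (-1.06) and Socs6 (-0.80), and Stat6 (-0.24), the STAT of IL-4 and IL-13. Cish was above background on no array, and Ptpn6 on only 1 MEF-labelled array. The call of Stat6 was lost with either scaling (adjusted p = 0.131 with median centring and 0.0928 with quantile normalization), with the replicate block (0.0896), without keratinocyte-labelled replicate 2 (0.0698) and without any one of the 3 MEF-labelled replicates (0.0539 to 0.0836). Of 18 genes listed as partners of chemokine signalling, 6 were measured, the chemokine Ppbp among them. Of these, 3 were higher, 2 lower and 1 not called, or 83.3% called, beside 74.5% of all genes. The higher share was 50.0% and the lower 33.3%, beside 32.9% and 41.7% of all genes. Besides Ppbp, the kinase gene Ptk2b was lower (-1.84, adjusted p = 3.62e-06), and Arrb1, Gnai2 and Rac1 were higher, by 1.19, 0.41 and 0.30. Arrb1 was above background on no array, whereas Gnai2 and Rac1 were above it on all 6.

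**Figure D4:**
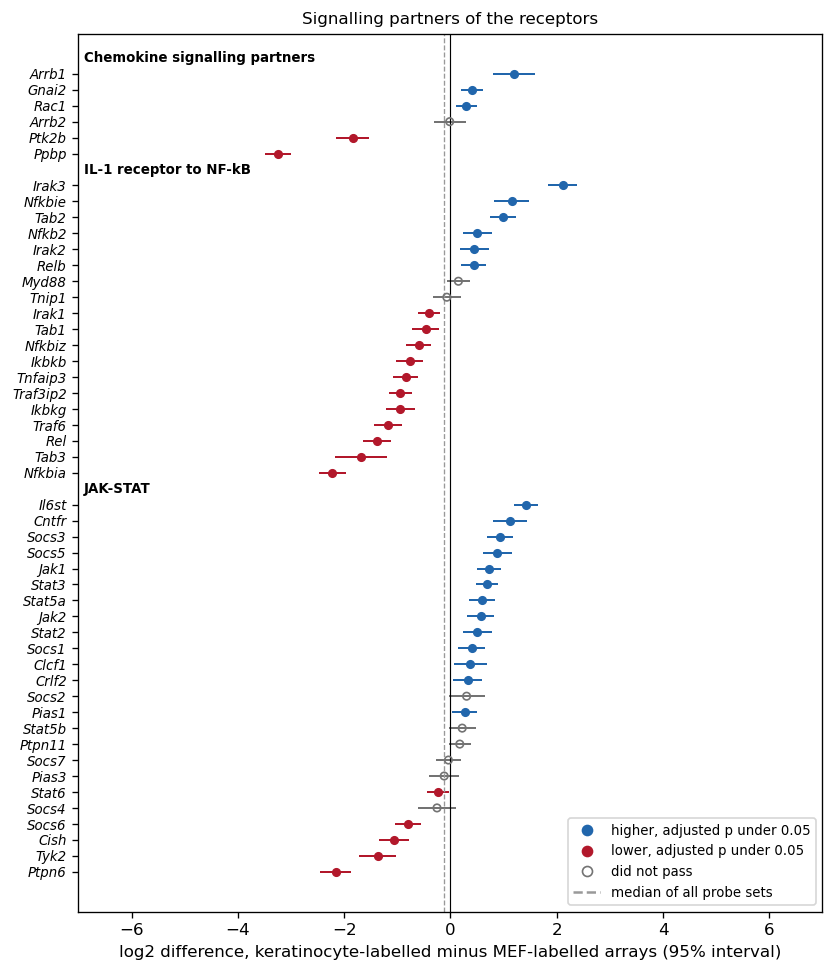
Log2 difference (horizontal axis, keratinocyte-labelled minus MEF-labelled arrays) of the 49 measured signalling genes of 3 lists, each by its brightest probe set, with bars for 95% intervals from limma, filled points for called differences (blue higher, red lower), open grey points for those that did not pass and a dashed line at the median of all probe sets. Of the genes between the IL-1 receptor and NF-kB, 11 of 19 lie on the lower side as called, and of the JAK-STAT genes 13 of 24 on the higher side. Over all genes 41.7% were lower and 32.9% higher.

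Many chemokine and cytokine genes are also used by leukocytes and endothelium, so markers of such cells were read beside the members. Of 13 macrophage markers, 2 were measured. Cd68 was lower on the keratinocyte-labelled arrays, with 4.39, 5.00 and 4.53 against 8.58, 8.68 and 8.43 on the MEF-labelled ones, and Lyz2 was higher, with 4.76, 5.24 and 5.71 against 0.47, 2.07 and 1.93 and 1 array above background. The 2 markers thus went opposite ways, and their summed linear signal, nearly all of it from Cd68 on the MEF-labelled arrays, was 48.0 to 75.3 on the keratinocyte-labelled arrays and 349 to 414 on the MEF-labelled ones. Of 8 endothelial markers, Kdr and Erg were measured, above background on no array, with differences of -1.47 and 2.45 (adjusted p = 7.69e-06 and 6.74e-07), and their summed signal was 46.4 to 53.6 on the keratinocyte-labelled arrays and 35.4 to 39.7 on the MEF-labelled ones. The lists for lymphocytes, Langerhans and mast cells and melanocytes had no gene among the named probe sets and were not analysed here. The part of such cells in the differences of the members was not tested.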

How the data were processed

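The deposited table holds log2 signals for 15648 probe sets on 6 Affymetrix MoGene-1_0-st arrays, used unchanged. According to the methods the arrays were RMA normalized using oligo, for which the processing notes of the submitters give version 1.46.0. That the values are this RMA output follows only from their range, and the selection of probe sets was not described in the sources at hand. RMA draws dim signals together and imposes a shared distribution, which can understate differences of dim genes. Groups came from the sample titles. In the probe table of the platform 11933 probe sets are listed, 11288 with 1 symbol and 645 with several, which were not named. Current symbols were found for 11274 through RefSeq gene identifiers. Linear models were fitted in limma 3.58.1 (lmFit, eBayes; R 4.3.3) without a block, and p-values were adjusted over the 11288 probe sets.

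The fit was tested on simulated data: with 200 of 11288 probe sets changed it found 86.0% of log2 differences of 1 and 100% of those of 2, and 2.11% of calls were false. In the data 74.0% were called, so these rates need not hold. Members and lists were chosen with earlier results of these data known. Members were given with the value on every array where they passed, did not overlap and were above background on all 3 arrays of a group, as were the brightest others of each class and genes whose probe sets disagreed. In the lists, the largest differences and those against the majority were named. Stat3, Jak1, Socs3, Myd88, Gnai2 and Rac1, and the values of some members below background, such as Il1a, were added after they were seen. Same-numbered arrays did not deviate together, but 3 arrays per group are too few to decide whether the replicate numbers mark pairs. Alternatives were a fit with a replicate block, fits without each array, 2 scalings, filters on dim probe sets, a trended robust eBayes, the methods' t-test, all probe sets in the fit, a minimum difference, 1 probe set per gene and another background level. The NF-kB motif was shortened by its last base after its matches had been seen. Plots were made in matplotlib 3.10.9 (Python 3.11.15).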

Additional observations from a re-analysis of the deposited data

How the results depend on the processing

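The counts of called members, 22 higher and 12 lower, stayed between 20 and 22 and between 11 and 13 with the replicate block, either scaling, a trended robust eBayes, the methods' t-test, all probe sets in the fit and 1 probe set per gene, and were 15 and 8 with a minimum log2 difference of 1. Without single arrays they were 21 to 22 higher and 12 to 13 lower. Filters on dim probe sets left fewer members to test: 21 with those above background on at least 3 arrays, of which 13 were higher and 7 lower, and 9 with those at or above the median, of which 6 were higher and 3 lower. Over all probe sets, the first filter left 7096, with 2528 higher and 3238 lower, and the second 5644, with 1789 higher and 2779 lower. The first filter lets a member in through the group where it is bright, so its counts are no result about the members. In the signalling lists, 22 higher and 18 lower became 14 and 13 with the first filter, 13 and 11 with the second, and 5 and 9 with the minimum difference. They were 26 and 17 with either scaling, 19 and 17 with the replicate block, and 21 to 22 and 17 to 19 without single arrays. Of the named genes of these lists, Stat6 lost its call and Myd88 gained one under some of these settings, and 10 others missed only the minimum difference. Cdh1 and Vim kept direction and call in each setting run for them, and without single arrays differed by -5.94 to -5.35 and 8.11 to 8.18. Members above background numbered 27 in place of 21 with the 75th percentile of the olfactory receptors, and adding vomeronasal, taste and trace amine receptors was no alternative, since none was among the named probe sets.

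Changes of sign were seen only for members that had not passed, and none passed with its new sign. Without single arrays Il17ra lay between -0.066 and 0.083, below 0 without keratinocyte-labelled replicate 3 or MEF-labelled replicate 1, and the dimmer probe set of Il20rb between -0.058 and 0.080, below 0 without replicate 2 of either label. With quantile normalization Il20rb was at -0.074 and Il27 at -0.019. Ackr3 was called lower with quantile normalization (adjusted p = 0.0169). By the methods' t-test the brighter probe set of Ccl25 was not called (adjusted p = 0.0632), nor were Lif and 1 probe set of Il17rd. Of the members' single values, no other lost its call, apart from 11 that missed the minimum difference.

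The replicate block changed no call among the 45 members, and gave 22 higher and 12 lower. Deviations of same-numbered arrays correlated at -0.23, -0.21 and -0.032 across probe sets, and those of differently numbered arrays at -0.032 to 0.21. Deviations from the means of so few arrays cannot decide whether the numbers mark pairs. Median centring moved the median difference of all probe sets to -0.028 from -0.12, and changed no call among the members. The number of arrays limits what can be detected, and dim members have only bounds.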
